A study of Homo sapiens with 4 samples.

Results

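Metallothioneins are small, cysteine-rich proteins that bind zinc, copper and cadmium, and 8 of their genes, MT1A, MT1E, MT1F, MT1G, MT1M, MT1X, MT2A and MT3, were examined here together with MTF1 and SLC30A1. MTF1 encodes the zinc-finger transcription factor that senses free zinc and switches on metallothionein genes, and SLC30A1 encodes the zinc exporter of the plasma membrane, another MTF1 target. The genes were chosen by symbol, and every feature of the array that carried 1 of these 10 symbols was taken. That gave 9 features of 21448, 1 for each gene except MT1A, which had no feature by symbol, gene ID or accession and has no value here.

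The cells were HeyA8-MDR, a human ovarian carcinoma line with multidrug resistance, grown with 15% serum, 0.1% gentamicin and 300 ng/ml paclitaxel, conditions that both groups shared. The control group (2 arrays) had received a control microRNA inhibitor, and the inhibitor group (2 arrays, labelled miR204) an inhibitor of miR-204-5p, an antisense oligonucleotide that blocks the mature microRNA. The treatment note is the same for all 4 samples, so the groups rest on the sample titles and the design text. Values are RMA log2 expression levels, in which 1 unit is a 2-fold difference. The labels do not say whether replicates came from separate cultures. The spread behind each p-value is therefore that of these 4 arrays, and it may be technical only.

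In many cells metallothionein transcripts rise quickly when zinc or cadmium enters, through copies of the metal response element to which MTF1 binds, and glucocorticoids and oxidative stress also raise them. The proteins buffer zinc, and the sulfur of their cysteines can take up oxidants and some cytotoxic drugs. The comparison asked whether these genes differed once miR-204-5p was blocked.

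The mature microRNA that the inhibitor targets is shown with miR-211-5p of the same family, because both share a seed, bases 2 to 8, printed in capitals. The sequences are those of RefSeq on GRCh38.p14. These arrays were not used to measure the mature microRNA.
miR-204-5p: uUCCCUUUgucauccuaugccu
miR-211-5p: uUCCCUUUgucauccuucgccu

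The promoters of MT2A, MT1X and SLC30A1 are shown because metals are known to act on these genes through a promoter element. A match to its core is a description, not a bound site. RefSeq windows on GRCh38.p14 were at hand for 4 of the 10 genes (MT2A, MT1X, MTF1 and SLC30A1), and the 250 bases before the start site were searched on both strands for the core of the metal response element, spelled TGCACNC or TGCGCNC. Capitals mark its matches. The MT2A window lies on the plus strand at chr16:56608334-56608583, that of MT1X on the plus strand at chr16:56682220-56682469 and that of SLC30A1 on the minus strand at chr1:211579162-211579411.
MT2A: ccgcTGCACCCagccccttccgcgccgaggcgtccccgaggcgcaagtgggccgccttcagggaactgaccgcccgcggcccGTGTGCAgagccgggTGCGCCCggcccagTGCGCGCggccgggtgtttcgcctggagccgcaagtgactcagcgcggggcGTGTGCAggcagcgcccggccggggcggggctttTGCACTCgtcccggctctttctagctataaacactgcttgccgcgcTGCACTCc
MT1X: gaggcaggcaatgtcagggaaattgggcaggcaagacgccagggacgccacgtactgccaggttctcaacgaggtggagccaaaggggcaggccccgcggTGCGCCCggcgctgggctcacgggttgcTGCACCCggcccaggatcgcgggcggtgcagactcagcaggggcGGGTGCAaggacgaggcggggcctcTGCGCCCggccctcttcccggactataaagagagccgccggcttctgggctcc
SLC30A1: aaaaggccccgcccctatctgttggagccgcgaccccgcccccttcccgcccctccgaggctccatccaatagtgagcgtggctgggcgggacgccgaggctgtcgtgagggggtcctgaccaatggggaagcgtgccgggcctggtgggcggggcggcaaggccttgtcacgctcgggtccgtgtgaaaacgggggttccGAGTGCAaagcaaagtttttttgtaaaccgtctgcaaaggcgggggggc

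MT2A held 7 matches, MT1X 4, SLC30A1 1 and MTF1 0. Of the 35116 promoter windows in the table, 24.8% held at least 1 match of either spelling, 0.37% held at least 4 and 0.0313% at least 7. The core of the antioxidant response element, TGACNNNGC, was found once each in the windows of MT2A, MT1X and SLC30A1 and in 10.9% of all windows. None of those 3 matches overlapped a metal response element match.

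No member passed an adjusted p of 0.05 in limma (0 of 9), against 0.0513% of all features. At an unadjusted p under 0.05, 1 member was higher with the inhibitor, MT3, against 5.11% of all features, and 1 was lower, MT1E, against 12.8%. The levels on the 2 inhibitor arrays lay entirely above those of the controls for 4 of 9 members (MT1F, MT1M, MT1X and MT3), against 16.5% of all features, and entirely below for 1 (MT1E), against 33.8%. In a bulk culture, fewer cells with a transcript and less of it per cell cannot be told apart. The median difference was 0.035 log2 units over the 9 members and -0.07 over all features.

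**Figure D1:**
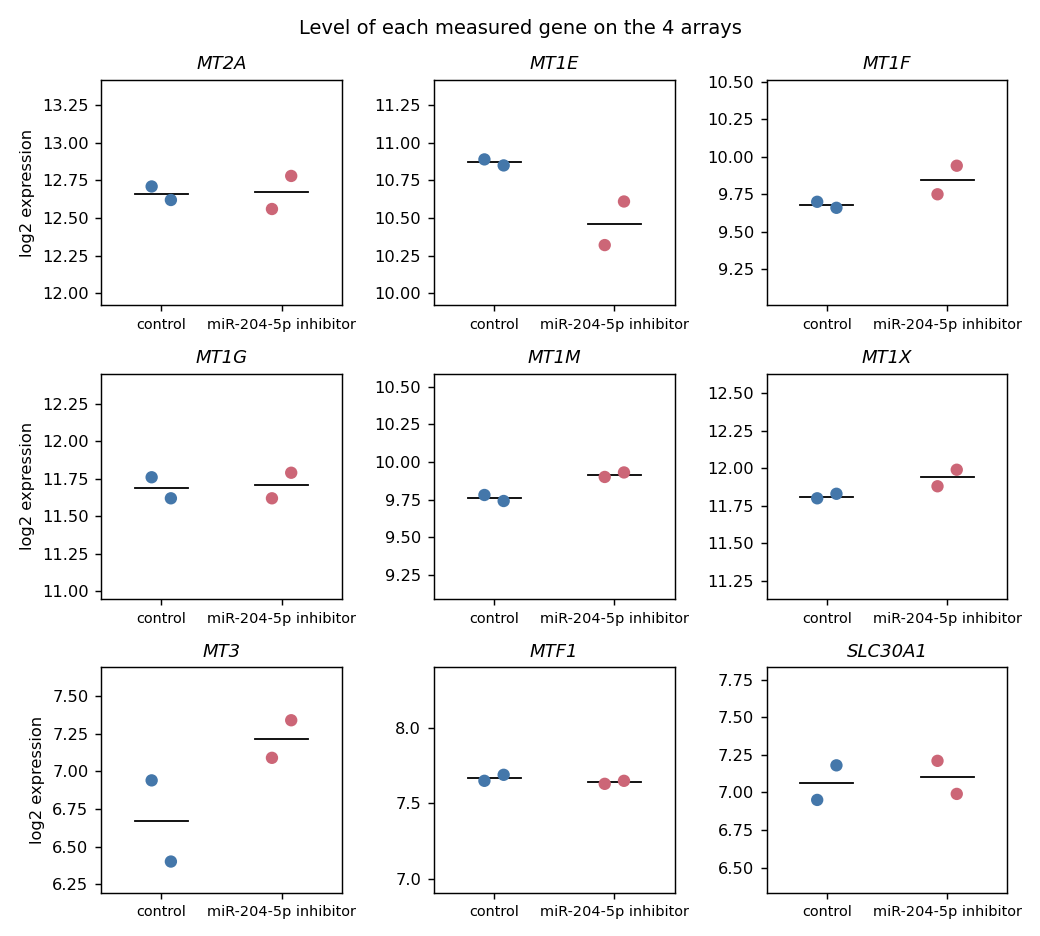
Log2 expression (vertical axis, 1.5 units in every panel) of the 9 measured genes on the 2 control arrays (blue) and the 2 miR-204-5p inhibitor arrays (red), with black bars at the group means. The groups overlap for MT2A, MT1G, MTF1 and SLC30A1, and MT3 and MT1E show the widest gaps between means.

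MT2A, the metallothionein with the broadest expression in human tissues, read 12.71 and 12.62 on control arrays 1 and 2 and 12.56 and 12.78 on inhibitor arrays 1 and 2. The inhibitor arrays bracketed the controls. The difference in level, inhibitor minus control, was 0.005 log2 units (SE 0.153, adjusted p = 0.99), a ratio of 1.003 with a 95% interval of 0.780 to 1.29. These levels lay close to the top of the scale, since the highest value of any feature was 12.86 on the array where it was lowest. Whether signals so near the top were compressed was not tested.

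Of the MT1 genes, MT1G, a metal-inducible isoform, gave 11.76 and 11.62 on the control arrays and 11.62 and 11.79 with the inhibitor. The groups overlapped, and the ratio was 1.01 (95% interval 0.788 to 1.30, adjusted p = 0.97). MT1X, whose promoter is shown above, gave 11.80 and 11.83 on the control arrays and 11.88 and 11.99 with the inhibitor. Both inhibitor arrays were above both controls, by little: the ratio was 1.09 (0.860 to 1.37, adjusted p = 0.68).

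MT1F was at 9.70 and 9.66 on the control arrays and at 9.75 and 9.94 with the inhibitor, a log2 difference of 0.165 (SE 0.148). MT1M was at 9.78 and 9.74, then 9.90 and 9.93, a log2 difference of 0.155 (SE 0.139). Neither pair of groups overlapped, yet neither difference passed (adjusted p = 0.59 for each). For MT1M the arrays of a group lay within 0.04 log2 units of each other, so its small shift exceeded its own replicate spread and was still below what the moderated test could call.

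MT1E was the 1 member metallothionein that read lower with the inhibitor. It read 10.89 and 10.85 in the controls (mean 10.87 ± 0.0283, SD, n = 2) and 10.32 and 10.61 with the inhibitor (10.46 ± 0.205, SD, n = 2). Both inhibitor arrays lay below both controls, with inhibitor array 1 the lower. The log2 difference was -0.405 (SE 0.16, unadjusted p = 0.040, adjusted p = 0.26), a ratio of 0.755 (95% interval 0.580 to 0.983). It passed with an intensity trend in the variance prior (adjusted p = 0.028, range over settings 0.028 to 0.83), a setting in which 6.09% of all features were called lower. After quantile normalization the difference was -0.21, and without inhibitor array 1 it was -0.26.

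MT3, also called growth inhibitory factor and known mainly from neurons, had the largest difference of the 9. It read 6.94 and 6.40 in the controls (6.67 ± 0.382, SD, n = 2) and 7.09 and 7.34 with the inhibitor (7.215 ± 0.177, SD, n = 2). Control array 2 stood lowest, and control array 1 was 0.15 log2 units from the nearer inhibitor array. The log2 difference was 0.545 (SE 0.213, unadjusted p = 0.039, adjusted p = 0.25), a ratio of 1.46 (95% interval 1.03 to 2.07). Without control array 2 the difference was 0.275, and without control array 1 it was 0.815.

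The 3 named features whose 4 values, each centred on its mean, lay closest to those of MT3 were ADIRF at a Euclidean distance of 0.104 log2 units, OR2T6 at 0.107 and ZAN at 0.128. Their log2 differences were 0.575, 0.56 and 0.42. With 4 arrays such closeness is a description only. All 3 shared the low value on control array 2, and OR2T6 read 3.47 to 4.35, at the dim end of the array.

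The transcription factor MTF1 read 7.65 and 7.69 on the control arrays and 7.63 and 7.65 with the inhibitor. The groups overlapped and the arrays of each group lay close together. The ratio was 0.979 (95% interval 0.779 to 1.23, adjusted p = 0.93). The log2 difference of -0.03 turned to 0.15 after quantile normalization, 0.157 after cyclic loess and 0.035 with equal array medians, so no direction is given. SLC30A1, the zinc exporter, read 6.95 and 7.18 on the control arrays and 7.21 and 6.99 with the inhibitor. The groups overlapped, with a ratio of 1.02 (0.783 to 1.34, adjusted p = 0.93).

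**Figure D2:**
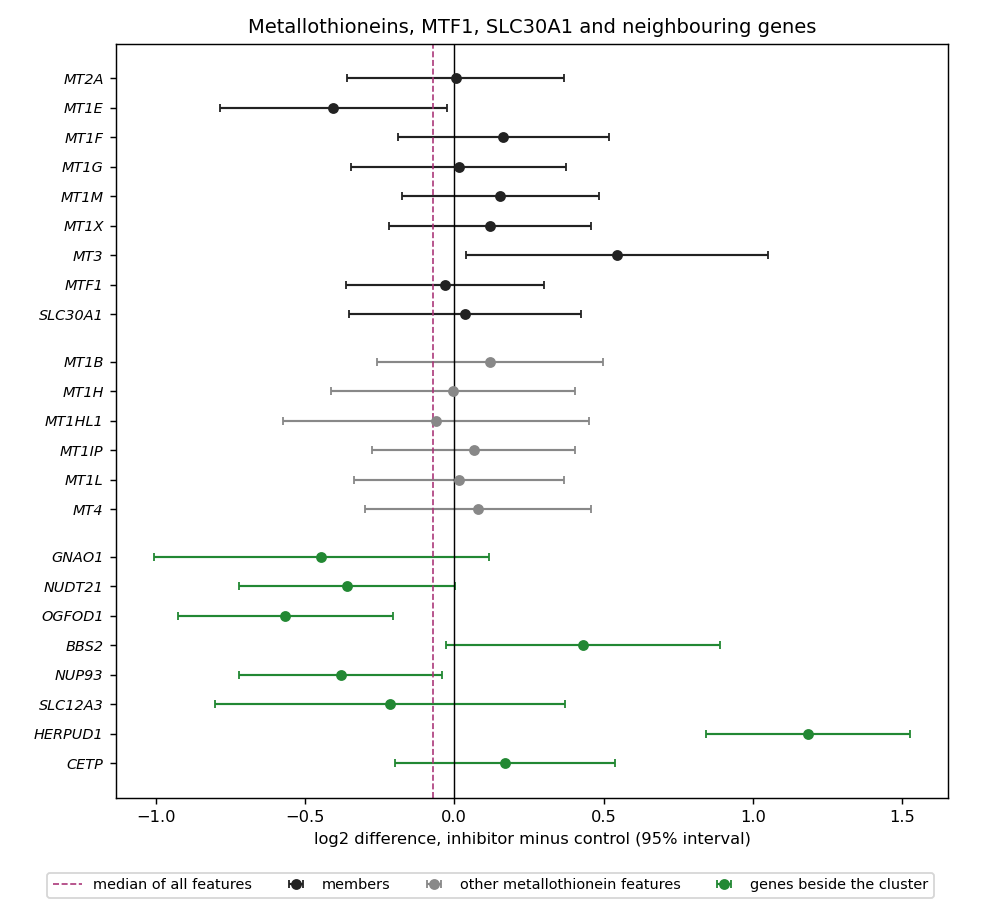
Log2 difference, inhibitor minus control, with its 95% interval from limma (horizontal axis) for the 9 members (black), 6 further metallothionein features (grey) and 8 genes beside the metallothionein cluster (green). The dashed line is the median of all features, -0.07. All metallothionein intervals except those of MT3 and MT1E include 0, and HERPUD1 stands apart at 1.185.

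The 95% intervals bound how large a difference these arrays leave room for on the deposited scale. Over the members other than MT3 they ran from 0.580-fold, the lower end for MT1E, to 1.43-fold, the upper end for MT1F. The interval of MT3 alone reached 2.07-fold.

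Metallothionein transcripts are close paralogs, and their features moved alike between replicate arrays. Beside the 7 measured member metallothioneins, 6 of 9 other metallothionein genes had a feature: MT1B, MT1H, MT1HL1, the transcribed pseudogenes MT1L and MT1IP, and MT4, a form of stratified epithelium. Inhibitor array 2 read above inhibitor array 1 in all 13 of these features, against 52.3% of all features on the array. Control array 1 read above control array 2 in 11 of the 13, against 40.3%. MT1X and MT1HL1 were the other 2. These shares over all features were not matched for signal level. The SD over all features was 2.08 on inhibitor array 1 and 2.13 on inhibitor array 2. On control arrays 1 and 2 it was 2.20 and 2.21. How far the array scale added to the shared order was not tested. How far a transcript of 1 gene contributed to the feature of another was not tested, so single isoforms are uncertain.

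The 6 other metallothionein features differed between groups by -0.06 to 0.12 log2 units, with a median of 0.04, or 0.17 after quantile normalization. All 6 overlapped between groups, and none passed (0 of 6 at an adjusted p and 0 of 6 at an unadjusted p of 0.05). Over all features, 16.5% lay entirely higher and 33.8% entirely lower with the inhibitor. At an unadjusted p under 0.05, 5.11% were higher and 12.8% lower, so a count of 0 in 6 says little. MT1B, for example, read 12.23 and 12.08 on the control arrays and 12.15 and 12.40 with the inhibitor. The pseudogene MT1L read 11.60 and 11.48, then 11.48 and 11.63, the same order of arrays as in MT1G.

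The array scale bears on these small differences. Features at high signal tended to read lower on the inhibitor arrays: the median difference was 0.085 in the dimmest 10% of features and -0.215 in the brightest 10%. MT1E, MT1F, MT1G, MT1M, MT1X and MT2A all fell in that brightest group, and MT3, MTF1 and SLC30A1 in the group from 6.923 to 7.655 log2 units, where the median was -0.17. Signal of different features is not a measure of their relative abundance. Against those medians, all members but MT1E read above the typical feature of their signal range.

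After a further quantile normalization, which brought the median of the brightest group to -0.016, 8 of 9 members were above 0 and the median member difference was 0.19. Over all features the split at an unadjusted p under 0.05 was then 1409 higher and 1523 lower, against 1096 and 2735 on the deposited values. The log2 differences became 0.38 for MT1F, 0.38 for MT1M, 0.275 for MT1X, 0.18 for MT1G, 0.026 for MT2A, 0.685 for MT3, 0.15 for MTF1, 0.19 for SLC30A1 and -0.21 for MT1E. None passed an adjusted p of 0.05 in that fit, in which 0 of all features passed, so the count does not set the members apart. With the intensity trend added, 3 members were called higher, against 1.42% of all features: MT1X (adjusted p = 0.015, range over settings 0.015 to 0.90), MT1M (0.025, range 0.025 to 0.90) and MT1F (0.027, range 0.027 to 0.90).

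**Figure D3:**
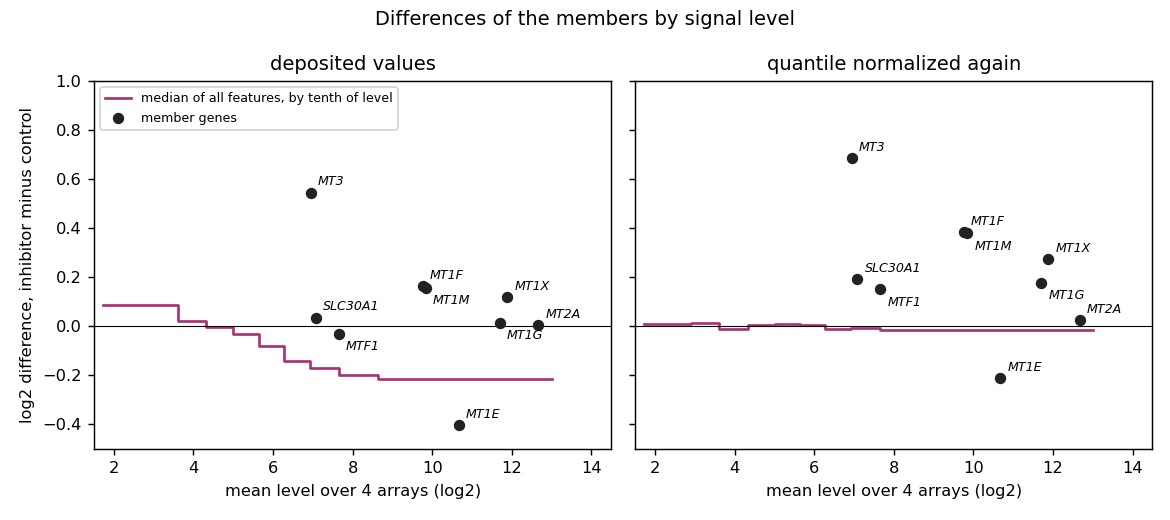
Log2 difference, inhibitor minus control (vertical axis), of the 9 members against their mean level over the 4 arrays (horizontal axis, log2), on the deposited values (left) and after a further quantile normalization (right). The stepped line is the median of all features in each 10% of features by mean level: on the left it runs from 0.085 down to -0.215, and on the right it stays near 0, with MT1E below it in both panels.

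**Figure D4:**
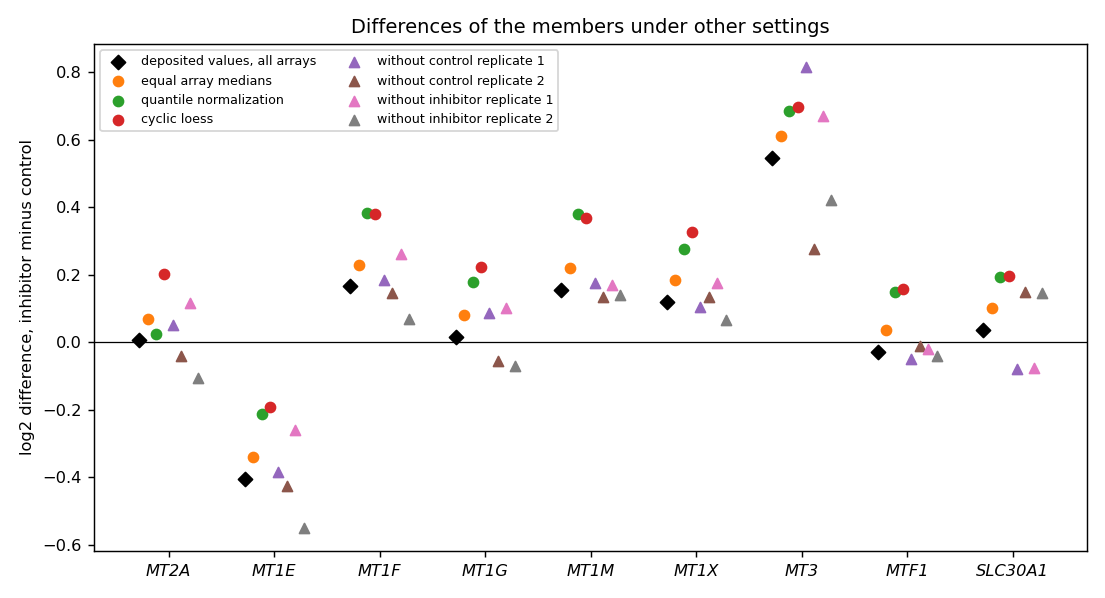
Log2 difference, inhibitor minus control (vertical axis), of each member on the deposited values (black diamonds), under other array scalings (circles) and without each array in turn (triangles). MT1F, MT1M, MT1X and MT3 stayed above 0 and MT1E below 0 in all of them, while MT2A, MT1G, MTF1 and SLC30A1 fell on both sides.

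The genes on either side of the metallothionein cluster on chromosome 16 spread more widely than the members. By RefSeq order the 4 measured genes before it were GNAO1, NUDT21, OGFOD1 and BBS2, and the 4 after it NUP93, SLC12A3, HERPUD1 and CETP. HERPUD1, a factor of protein degradation at the endoplasmic reticulum, read 7.96 and 8.06 on the control arrays and 9.14 and 9.25 with the inhibitor, a log2 difference of 1.185 (SE 0.144, adjusted p = 0.098). OGFOD1, an oxygenase acting on the ribosome, read 7.75 and 7.91, then 7.19 and 7.34 (log2 difference -0.565, adjusted p = 0.18). NUP93, a nuclear pore scaffold protein, differed by -0.38 (adjusted p = 0.24), or -0.18 after quantile normalization. None of the 8 passed an adjusted p of 0.05 on the deposited values without a trend or filter, against 0.0513% of all features. HERPUD1 passed in 4 other settings (range over settings 2.5e-05 to 0.83), OGFOD1 with the intensity trend (0.022) and above the median level (0.039), and NUDT21 with the trend (0.048). The trend alone called 219 features higher and 1306 lower, and the filter above the median level called 1011 in either direction. At an unadjusted p under 0.05, HERPUD1 was higher and OGFOD1 and NUP93 were lower, against 5.11% and 12.8% of all features. The log2 differences ran from -0.565 to 1.185, against -0.405 to 0.545 in the members.

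Other genes of zinc transport are grouped into exporters of the SLC30 family, which move zinc out of the cytosol, and importers of the SLC39 family, which move it in. None of the 9 other exporters passed an adjusted p of 0.05, against 0.0513% of all features. At an unadjusted p under 0.05, 0 were higher and 1 was lower, against 5.11% and 12.8% of all features. The lower one, SLC30A9, a mitochondrial zinc transporter, read 8.5 and 8.4 on the control arrays and 7.56 and 8.17 with the inhibitor. Its log2 difference of -0.585 was -0.28 without inhibitor array 1. Its adjusted p under the intensity trend was 0.048, in a setting that called 6.09% of all features lower. SLC30A4 differed by -0.36 with overlapping groups, and by -0.06 without inhibitor array 1. SLC30A8, the insulin granule transporter, differed by 0.215 at 2.97 to 3.19 log2 units, among the dimmest features, and by 0.14 after quantile normalization. The exporter median was -0.05, or 0.0063 after quantile normalization.

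Of 14 importers, 0 passed an adjusted p, against 0.0513% of all features. There were 3 lower and 0 higher at an unadjusted p under 0.05, where 12.8% and 5.11% of all features lay. SLC39A14, which carries zinc and iron into cells, read 8.39 and 8.68 on the control arrays and 7.98 and 7.94 with the inhibitor (log2 difference -0.575, SE 0.16, adjusted p = 0.18). SLC39A10, reported to be repressed by MTF1 when zinc is high, read 7.82 and 7.84, then 7.22 and 7.45 (-0.495, SE 0.152, adjusted p = 0.20). SLC39A6 read 7.84 and 8.01, then 7.14 and 7.67 (-0.52, SE 0.205, adjusted p = 0.26), and the difference was -0.255 without inhibitor array 1 and -0.34 after quantile normalization. After that normalization SLC39A14 differed by -0.38 and SLC39A10 by -0.32. With the intensity trend SLC39A14 (adjusted p = 0.016) and SLC39A10 (0.039) passed, as did SLC39A14 above the median level (0.043). The trend called 6.09% of all features lower, and the filter above the median level called 1011 features in either direction. The 2 groups did not overlap for these 3, as for 33.8% of all features in that direction, and the importer median was -0.11, or -0.061 after quantile normalization.

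Copper and iron genes gave the same count of adjusted calls, 0 of 10 and 0 of 12, on the deposited values without a trend or filter. Over all features 0.0513% passed there, so a count of 0 in such short lists says little. For copper, 0 of 10 were higher and 2 lower at an unadjusted p under 0.05, against 5.11% and 12.8% of all features. The 2 were ATOX1, the copper chaperone of the secretory pathway (log2 difference -0.38, SE 0.139), and ATP7A, a copper-exporting pump (-0.445, SE 0.164). The ATP7A levels of 3.23 to 3.87 were below the 25th percentile of features, 3.965. COX17, the copper chaperone of cytochrome oxidase, differed by -0.38 (SE 0.169). After quantile normalization ATOX1 was at -0.18 and COX17 at -0.245, and ATP7A at -0.51. Without control array 2 ATP7A was at -0.29, and without control array 1 COX17 was at -0.245. The copper median was -0.18 on the deposited values and 0.022 after quantile normalization.

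For iron, 2 genes were higher and 2 lower at an unadjusted p under 0.05, where 5.11% and 12.8% of all features lay. FTL, the light chain of the iron store ferritin, read 10.66 and 10.66 on the control arrays and 11.33 and 11.46 with the inhibitor (log2 difference 0.735, SE 0.143, adjusted p = 0.14). TFRC, the transferrin receptor that brings iron in, read 10.10 and 10.22, then 9.42 and 9.65 (-0.625, SE 0.155, adjusted p = 0.17). STEAP3, the reductase of endosomal iron, differed by -0.485 (SE 0.141) and SLC25A28, a mitochondrial iron importer, by 0.47 (SE 0.19). The latter was named for its count after its values were seen. With the intensity trend FTL (adjusted p = 0.00053), TFRC (0.0048) and STEAP3 (0.027) passed, and they did so above the median level too (0.02, 0.034 and 0.046). FTL and TFRC also passed with quantile normalization and trend (2.1e-05 and 0.026), where the difference of TFRC was -0.39. Over all features the trend called 219 higher and 1306 lower, or 304 and 255 with quantile normalization. The filter above the median level called 1011 in either direction. STEAP3 was at -0.30 after quantile normalization. The iron median was -0.035, or 0.036 after quantile normalization.

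**Figure D5:**
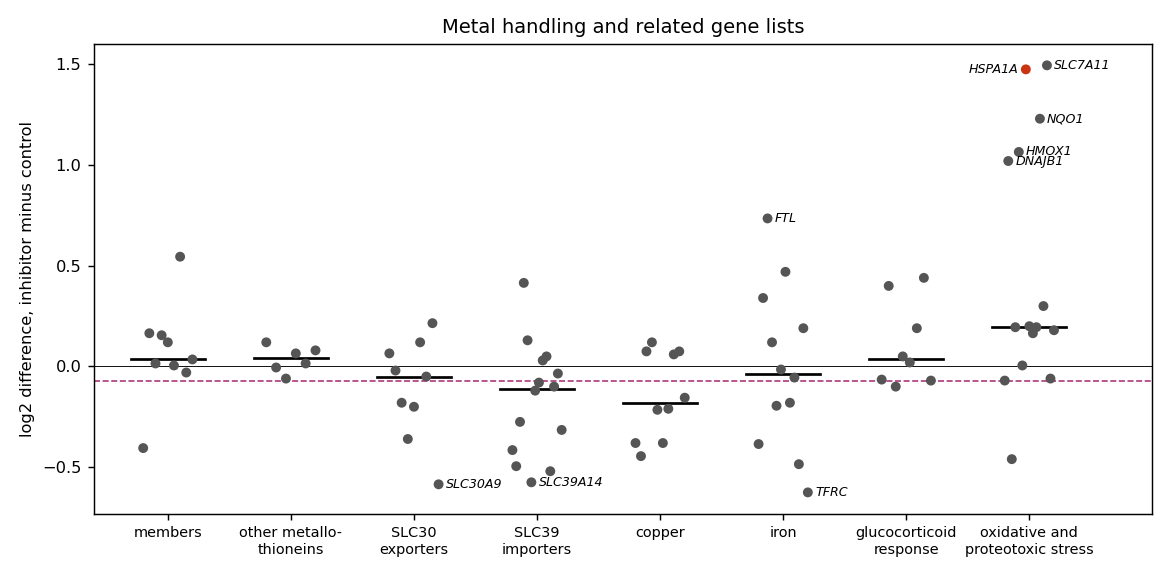
Log2 difference, inhibitor minus control (vertical axis), of each measured gene in the members and 7 related lists (horizontal axis), with black bars at list medians and the median of all features dashed. The red point, HSPA1A, is the only gene shown past an adjusted p of 0.05. The members and the other metallothioneins lie between -0.405 and 0.545, below the 5 stress genes from 1.02 to 1.495.

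Stress genes that cadmium also induces, through NRF2 and heat shock factor, were read beside the members, and 5 of them differed by more than any metallothionein. The list was chosen with earlier results of these data known, so its counts are a description and not a test. Of 15 measured, 1 rose past an adjusted p of 0.05, the heat shock protein HSPA1A, against 0.0513% of all features. At an unadjusted p under 0.05, 5 were higher and 1 lower, against 5.11% and 12.8% of all features. HSPA1A read 7.36 and 7.28 on the control arrays and 8.79 and 8.80 with the inhibitor, a ratio of 2.78 (adjusted p = 0.041, range over settings 2.1e-05 to 0.83). It lost its call after quantile normalization (0.058) and with the replicate number as a block, where 0 of all features passed. The same held in an ordinary test, where 4 of all features passed. The log2 difference of HSPA1A was 1.475 on the deposited values and 1.662 after quantile normalization. When 1 of the 4 arrays was left out, it was 1.435 to 1.515. SLC7A11, the cystine transporter, had a ratio of 2.82 (adjusted p = 0.069) and NQO1, a quinone reductase, one of 2.35 (0.075). Both passed in 4 other settings, the trend with and without quantile normalization and the 2 filters on dim features. Over all features the trend called 219 higher, or 304 with quantile normalization. The filters called 1011 and 38 in either direction.

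HMOX1, heme oxygenase, stood beside them in that count, as did the co-chaperone DNAJB1, both named after their values were seen. HMOX1 is a gene that metals and heme induce strongly, and it read 6.49 and 6.52 on the control arrays and 7.58 and 7.56 with the inhibitor, a ratio of 2.09 (95% interval 1.66 to 2.63, adjusted p = 0.10). On the same deposited scale the interval of MT2A, whose signal lay near the top, ended at 1.29. That of MT1F ended at 1.43, and that of MT3, 1.03 to 2.07, overlapped the interval of HMOX1. After cyclic loess the log2 difference of MT2A was 0.20 (SE 0.131). Why HMOX1 and MT2A differed was not tested. DNAJB1 had a ratio of 2.03 (adjusted p = 0.14). GCLC, the catalytic subunit of the enzyme that starts glutathione synthesis, was the 1 lower gene (log2 difference -0.46, SE 0.159), also named after its values were seen. The list median was 0.195, against 0.035 for the members, and after quantile normalization the medians were 0.38 and 0.19.

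Glucocorticoid-responsive genes were counted because these hormones also induce metallothioneins. Of 8 measured, 0 passed an adjusted p, against 0.0513% of all features. At an unadjusted p under 0.05, 2 were higher and 0 lower, against 5.11% and 12.8% of all features. TSC22D3, a leucine zipper protein known as GILZ, read 5.98 and 5.92 on the control arrays and 6.25 and 6.53 with the inhibitor, and the phosphatase DUSP1 read 8.04 and 8.25, then 8.51 and 8.58. Their log2 differences were 0.44 (SE 0.159) and 0.40 (SE 0.151). DUSP1 passed with quantile normalization and trend (adjusted p = 0.015), a setting in which 1.42% of all features were called higher. The kinase SGK1 differed by 0.19 with overlapping groups, by 0.38 without inhibitor array 1 and by 0.0 without inhibitor array 2. Over the 8 genes the median difference was 0.035; quantile normalization brought it to 0.16, and leaving out inhibitor array 1 to 0.1975.

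As a check of the labelled line, the carcinoma markers KRT8 and KRT18 read 10.74 to 11.45 and the ovarian lineage factor PAX8 8.31 to 8.51, while EPCAM read 2.93 to 3.87 and MSLN 3.11 to 3.78, both below the 25th percentile. MUC16 (4.35 to 4.86) and KRT19 (4.96 to 5.62) were below the median level of 5.635. An adjusted p was passed by 0 of the 9 carcinoma markers, against 0.0513% of all features. All 9 carcinoma markers were below 0 on the deposited values, as were 12764 of the 21448 features. Their median was -0.36, or -0.22 after quantile normalization. The leukocyte marker PTPRC read 2.77 to 3.03, near the bottom of the scale, and CD68, which other cells also express, 8.3 to 8.55. CD14, CD3E and ITGAM of the same list read 4.97 to 5.60, 4.53 to 5.04 and 4.11 to 4.76. In that list of 5 measured markers, 4 were above and 1 below 0. Of 6 endothelial markers, 2 were above and 4 below 0. CDH5, an endothelial marker, read 8.06 to 8.13 on the control arrays and 7.01 to 7.03 with the inhibitor. PECAM1, of the same list, read 3.78 to 4.53 with a log2 difference of 0.47, TEK 2.9 to 3.16 and ROBO4 7.24 to 7.37. Of 5 measured fibroblast markers, 1 was above and 4 below 0. Among them LUM read 2.3 to 2.44 and COL1A2 7.6 to 7.99. The part of these marker shifts in the metallothionein values was not tested.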

How the data were processed

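Gene expression of 4 samples of HeyA8-MDR cells was measured on Affymetrix Human Clariom S arrays. The values the authors deposited are log2 expression made with RMA; the submitters' processing notes name Transcriptome Analysis Console 4.0. The genome build and settings are not given in the sources used here. Detection calls were not analysed here. Symbols came from the platform annotation, in which 17709 of 21448 features had 1 symbol. For list genes with several features the one with the highest mean was used.

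The 2 groups were fitted in R 4.3.3 by limma 3.58.1 (lmFit, eBayes, no replicate block) across all features, with Benjamini-Hochberg adjustment, a threshold of 0.05, 2 residual and 4.78 prior degrees of freedom and no filter. Exact permutation of 2 against 2 arrays cannot go below p = 0.333, so none was run. Array medians were 5.59 to 5.68, and the number of arrays limits the precision. The procedure was tested on simulated data.

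The members and gene lists were chosen with earlier results of these data known. Named genes were all members, the 3 with the largest moderated statistic in each list of metal handling, hormone or stress genes (the others serve as markers), SLC39A10, 4 measured genes on each side of the metallothionein cluster and the 3 nearest profiles to MT3, the member with the largest statistic. HMOX1, DNAJB1, GCLC and SLC25A28 were named after their values were seen. The 13 other settings are described below.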

Additional observations from a re-analysis of the deposited data

How the results depend on the processing

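The settings tried were an intensity trend, the replicate number as a block, 3 rescalings of the arrays, quantile normalization with the trend, 2 filters on dim features, an ordinary test and leaving out each array. The count of 11 features past an adjusted p of 0.05 became 1525 with the intensity trend, 559 with quantile normalization and trend, 1011 above the median level, 38 above the 25th percentile, 4 in the ordinary test and 0 after quantile normalization. It was 0 to 0 without 1 array, where fewer degrees of freedom remain. The member count of 0 became 1 with the trend (MT1E, -0.405) and 3 with quantile normalization and trend (MT1F 0.3825, MT1M 0.3787, MT1X 0.275), and stayed 0 in the other 11.

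The sign of MTF1 turned to 0.15 after quantile normalization with or without the trend, 0.035 with equal medians and 0.157 with cyclic loess. Leaving out 1 array gave ranges that cross 0 for SLC30A1 (-0.08 to 0.15), MT2A (-0.105 to 0.115), MT1G (-0.07 to 0.10), MT1B (-0.005 to 0.245), MT4 (-0.045 to 0.205) and SLC12A3 (-0.515 to 0.085). MT1F, MT1M, MT1X and MT3 stayed above 0 and MT1E below 0 in all settings run. The cause of these shifts was not tested.

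With the replicate block 0 features passed, and 0 members. Same-numbered arrays did not deviate together (correlation of their deviations 0.0058 across features), so the numbers are not taken to pair the samples.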
